A study of Kluyveromyces lactis with 17 samples.

Results

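The comparison described here asked which transcripts of wild-type Kluyveromyces lactis, a yeast that depends on vitamin B3 from its medium, differ in level when nicotinic acid is supplied at 45 rather than 400 µg/L. It uses 5 of the 17 RNA-seq libraries of the study: WT libraries 5 and 6 at 45 µg/L, set against WT library 2 and the sum of WT libraries 1 and 1R at 400 µg/L, so that each level has 2 replicates. To estimate the spread between replicates, the tests also drew on the other libraries of the study. WT was strain LRY2992 (MATa SIR2, with the silent mating-type loci deleted as hmlΔ hmrΔ). The strain used alongside it was LRY2993 (MATα sir2Δ hmlΔ hmrΔ), which also lacks HML and HMR, so loss of SIR2 and the change of mating type cannot be told apart in any contrast of the strains. All cultures spent the night in minimal glucose medium with 400 µg/L nicotinic acid at 30 °C, were then diluted into 15, 45, 135 or 400 µg/L and grown for 4 h to log phase. Each level was run side by side in both strains, and the series text states 2 independent biological replicates per group. Poly(A)-selected RNA was sequenced.

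Cells make NAD+ from nicotinic acid by the Preiss-Handler route. In Saccharomyces cerevisiae the permease Tna1 takes nicotinic acid up, Npt1 joins it to phosphoribosyl pyrophosphate, a Nma enzyme adds AMP, and Qns1 amidates the product to NAD+. K. lactis lacks the full route that makes NAD+ from tryptophan, so the vitamin is its main source. Sir2 is a deacetylase of histones that consumes NAD+. In K. lactis it silences genes near chromosome ends, and with the DNA-binding protein Sum1 it represses genes of sporulation and cell type, a task that in S. cerevisiae falls to the related deacetylase Hst1.

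The libraries at 45 µg/L held 31917198 and 36022436 counts, and those at 400 µg/L held 29311784 (library 1), 35544957 (library 1R) and 31558297 (library 2). Ribosomal RNA took 4.85% and 10.6% of counts at 45 µg/L, and 5.93%, 2.74% and 6.28% in libraries 1, 1R and 2. Library 1 stood apart: on the scale of log2 CPM (counts scaled to a common library size) Pearson's r over genes was 0.960 between library 1 and its repeat 1R and 0.965 between libraries 1 and 2. It was 0.997 for libraries 1R and 2 and 0.993 for the replicates at 45 µg/L. Its difference from the others ran with gene length, from a median of 0.60 log2 units in the shortest of 5 bins of genes to -0.40 in the longest. With library 1 in the sum, the median difference of 45 over 400 µg/L lay between -0.03 and 0.02 in these bins. Without library 1 it ran with length, from 0.13 in the shortest bin to -0.07 in the longest, so small differences at 45 over 400 µg/L depend on how that library is treated. The SIR2 gene (KLLA0_F14663g) averaged 140 ± 3.24 CPM at 45 µg/L and 133 ± 7.42 CPM at 400 µg/L (SD, n = 2 each), so all WT libraries held the transcript of the gene that defines the genotype. Reads of the α gene HMLALPHA1 numbered 19 and 26 at 45 µg/L and 39, 62 and 11 in libraries 1, 1R and 2, which is between 0.515% and 2.58% of the level in sir2Δ (MATα) cells at 400 µg/L.

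Of 5224 genes tested, 557 (10.7%) passed the threshold of adjusted p under 0.05 in edgeR's quasi-likelihood test, 376 (7.2%) of them higher and 181 (3.46%) lower at 45 µg/L. The rises went further: 71 genes (1.36%) rose by at least 1 log2 unit and 8 (0.153%) fell by as much, while the median over all genes was 0.00. Rises made up 67.5% of the calls, and 56.0% when libraries were scaled by upper-quartile factors. The spread behind these calls was estimated over all 8 groups of the study, those of sir2Δ included. Fitted on the compared groups alone, 153 genes passed, and 151 of the 557 calls were kept. The calls of URH1, RIF1, GAL80, MET2 and MET17, given below, were among those lost there. The count of calls moved by over 1.5 times with a single library: it was 319 without WT library 6 at 45 µg/L and 364 without replicate 1 at 400 µg/L. WT library 6 also had the highest share of ribosomal RNA, whose part in these counts was not tested. Replicates at 45 µg/L lay wholly above those at 400 µg/L for 1283 genes (24.6%) and wholly below for 1026 (19.6%). These include genes that did not pass the test. Counts of calls in the gene lists below are to be read beside the shares of all genes, 7.2% higher and 3.46% lower.

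**Figure D1:**
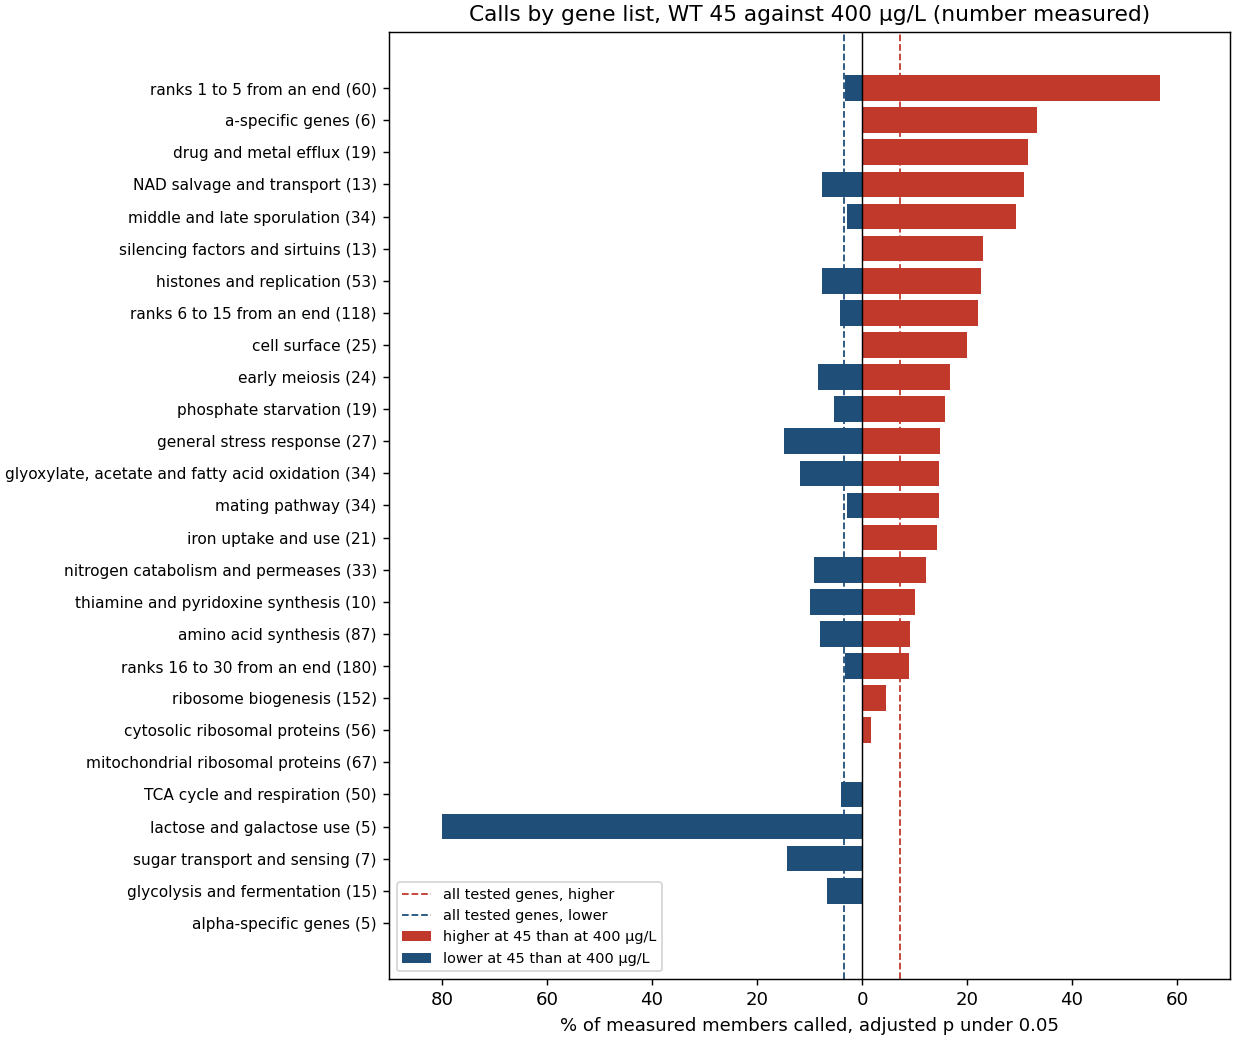
Share of the measured members of each gene list called higher at 45 than at 400 µg/L nicotinic acid (red, to the right) or lower (blue, to the left), with the number measured in brackets and dashed lines for all tested genes (7.2% and 3.46%). The 5 genes nearest each chromosome end have the longest red bar (56.7%), and the 5 lactose and galactose genes matched by symbol the longest blue bar (80%).

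Genes of NAD salvage and transport included the vitamin's permease and the first enzyme of its route. Of 13 measured members, 4 rose, 1 fell and 8 did not pass, with a median of 0.15. TNA1 (KLLA0_A09449g) had 2591 and 2489 CPM at 45 µg/L, against 408 and 439 CPM at 400 µg/L. Both replicates at 45 µg/L stood far above both at 400 µg/L (log2 fold change 2.58 ± 0.10, SE, adjusted p = 2.7e-11). Taken singly, library 1 had 323 CPM and library 1R 487 CPM, so the spread between these repeats was small beside the difference. In bulk cultures, more RNA per cell and more cells with the transcript cannot be told apart. NPT1 (KLLA0_D06655g), the nicotinate phosphoribosyltransferase, had 447 and 493 CPM at 45 µg/L, against 159 and 143 CPM at 400 µg/L (log2 fold change 1.64 ± 0.08, adjusted p = 6.8e-10). The groups did not overlap.

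The other 2 rises of this list were small and concerned nucleosides. URH1, which in S. cerevisiae splits uridine and nicotinamide riboside, had 85.3 and 97.4 CPM at 45 µg/L and 65.0 and 64.1 CPM at 400 µg/L (0.50 ± 0.08 on the log2 scale). FUN26, a vacuolar nucleoside transporter in S. cerevisiae, rose by 0.34 ± 0.09, a call that was lost without WT library 6 (adjusted p = 0.102) or without replicate 2 at 400 µg/L (adjusted p = 0.0888). YIA6, which carries NAD+ into mitochondria in S. cerevisiae, had 42.3 and 41.6 CPM at 45 µg/L and 62.5 and 64.1 CPM at 400 µg/L, and fell by 0.59 on the log2 scale (adjusted p = 0.0003).

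The steps after Npt1 did not pass the test. NMA2, the adenylyltransferase, had 223 and 257 CPM at 45 µg/L and 251 and 250 CPM at 400 µg/L. QNS1, the NAD synthetase, had 177 and 188 CPM at 45 µg/L and 169 and 156 CPM at 400 µg/L (0.17 ± 0.08, adjusted p = 0.21), although these replicates did not overlap. The nicotinamidase gene PNC1 had 109 and 111 CPM at 45 µg/L against 102 and 96.7 CPM at 400 µg/L (adjusted p = 0.29), and the nicotinamide riboside kinase gene NRK1 had 12.1 and 10.6 CPM against 8.23 and 11.4 CPM (adjusted p = 0.64). Values for ISN1 (-0.12), PNP1 (-0.02), MEU1 (-0.11), PHO8 (-0.01) and BNA3 (-0.16) did not pass either. BNA3 was the only measured gene of 7 listed under synthesis from tryptophan, so its value does not describe that route.

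The largest rise of all was KLLA0_C06677g, which has no symbol in the annotation and lies near URH1 in the interior of chromosome C. It had 1340 and 1288 CPM at 45 µg/L, against 142 and 121 CPM at 400 µg/L, a log2 fold change of 3.32 ± 0.10 (adjusted p = 2.1e-12). Its neighbour KLLA0_C06699g had 595 and 621 CPM at 45 µg/L, against 103 and 89.8 CPM at 400 µg/L (2.66 ± 0.10). With URH1 and DIT2, the genes formed a run of 4 adjacent rises. Neither gene's replicates overlapped between the levels, and in sir2Δ cells, where KLLA0_C06677g had 1457 and 1366 CPM at 45 µg/L and 1238 and 1206 CPM at 400 µg/L, it did not pass (0.21, adjusted p = 0.11).

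**Figure D2:**
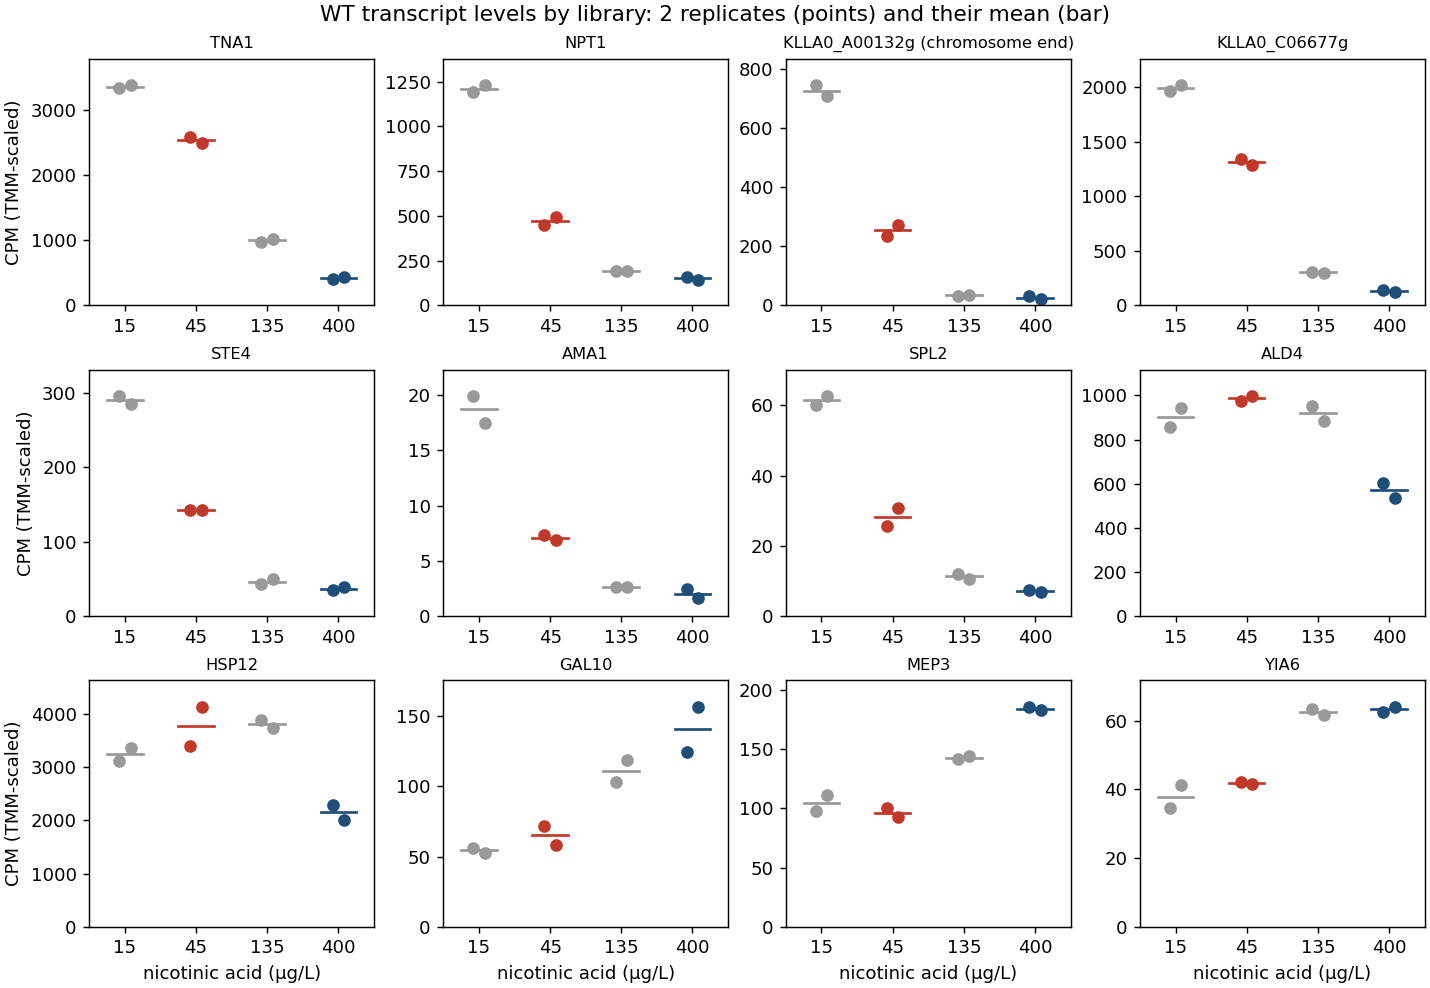
Level of 12 genes in WT libraries at 15, 45, 135 and 400 µg/L nicotinic acid, in CPM scaled by TMM factors on linear axes starting at 0; points are the 2 replicates, bars their mean, with 45 µg/L in red, 400 µg/L in blue and the other levels in grey. TNA1 lies at 2591 and 2489 CPM at 45 µg/L against 408 and 439 CPM at 400 µg/L, ALD4 and HSP12 are higher at 45 and at 135 µg/L than at 400 µg/L, and GAL10, MEP3 and YIA6 are lower at 45 than at 400 µg/L.

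Many genes close to chromosome ends rose. Of the 60 genes among the first 5 from an end, 34 (56.7%) rose and 2 fell, with a median log2 fold change of 0.95, against 7.2% of all genes and a median of 0.00. Of 118 genes at ranks 6 to 15, 26 rose and 5 fell (median 0.09), and of 180 at ranks 16 to 30, 16 rose and 6 fell (median 0.04). Without a replicate these counts were 16 to 22 rises and 3 to 11 falls at ranks 6 to 15, and 11 to 15 rises and 0 to 5 falls at ranks 16 to 30. Beyond rank 30, 300 of 4712 genes rose and 166 fell (median -0.00), with 177 to 326 rises and 79 to 224 falls without a replicate. Leaving out each replicate in turn left between 31 and 35 rises in the first 5 ranks. Of the 71 rises of at least 1 log2 unit, 28 lay within the first 5 ranks and 38 beyond rank 30.

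The nearest genes rose the most, and several of them were so alike in level that reads may be shared among copies. KLLA0_A00132g had 234 and 273 CPM at 45 µg/L, against 31.4 and 21.3 CPM at 400 µg/L (3.26 ± 0.14). KLLA0_C00132g (3.16) and KLLA0_D20009g (3.02) had like changes, and KLLA0_D20009g had 267 and 310 CPM at 45 µg/L, against 40.7 and 29.9 CPM at 400 µg/L. Another set, KLLA0_B00143g, KLLA0_D00143g, KLLA0_E00133g and KLLA0_F00154g, had 155 to 160 CPM in library 5 and 175 to 179 CPM in library 6, with log2 fold changes between 2.83 and 2.90. A further set, KLLA0_A00110g, KLLA0_C00110g, KLLA0_E00111g and KLLA0_F00132g, rose by 2.51 to 2.68 and had 54.3 to 58.7 CPM in library 5. Since the sources used here do not say how reads with several matches were counted, the genes within each set may not be independent of each other, and the count of 34 may hold the same reads more than once. This was not tested. None of these genes has a symbol in the annotation.

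Ends differed from each other, a pattern noticed after the values were seen. All 5 first genes rose at the left ends of chromosomes A, B, E and F, and 4 of 5 at the left ends of C and D and the right end of D. These 7 ends are those with 4 or 5 rises, so their contrast with the rest follows largely from that choice. Over them, 32 of 35 genes rose, with end medians from 1.26 to 2.46. Over the other 5 ends, 2 of 25 rose and 2 fell, with end medians from -0.08 to 0.69. Runs of adjacent rises starting at an end spanned 10 genes on the left of B, 7 on the left of E and 5 on the left of A and of F. The run on B ended in BIO5, a biotin precursor transporter in S. cerevisiae. That on E ended in ARR2 and ARR1, genes of arsenic resistance in S. cerevisiae. These lengths rest on weak calls within the runs. KLLA0_B00264g, at rank 6 on B, had 1.39 CPM in library 1 against 7.65 CPM in library 1R. Its edgeR call was lost with library 1R alone as replicate 1 (adjusted p = 0.136), and that of ARR1 with upper-quartile factors (adjusted p = 0.0767). Both calls were also lost with libraries 1, 1R and 2 as 3 replicates (adjusted p = 0.241 and 0.073). The same held in some fits without a single replicate.

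**Figure D3:**
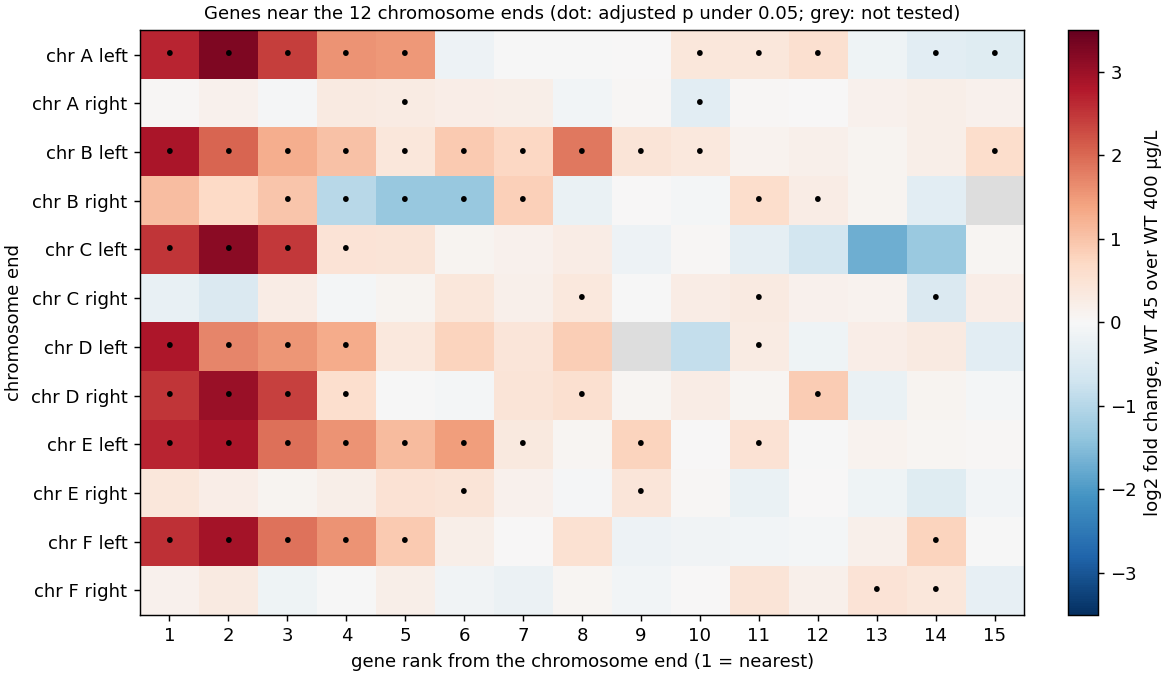
Log2 fold change of WT at 45 over 400 µg/L nicotinic acid for the first 15 genes from each of the 12 chromosome ends (rows), by gene rank from the end (columns); red is higher at 45 µg/L, blue lower, a dot marks adjusted p under 0.05 and grey squares were not tested. Red with dots fills the first ranks of the 7 ends that had 4 or 5 rises (32 of 35 genes). The right ends of A, B, C, E and F hold 2 rises among 25 genes, a contrast that follows largely from that grouping. The blue squares without dots on the left of C are HMLALPHA1 and HMLALPHA2, at few reads. Both are named for the HML locus, which WT lacks.

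Of 13 measured silencing factors and sirtuins 3 (23.1%) rose and none fell, against 7.2% of all genes that rose, and the median was 0.08. SUM1 had 97.6 and 87.3 CPM at 45 µg/L and 54.9 and 65.9 CPM at 400 µg/L (0.62 ± 0.11, adjusted p = 0.001). RIF1, a telomere-binding protein in S. cerevisiae, had 84.5 and 82.4 CPM at 45 µg/L and 60.1 and 59.8 CPM at 400 µg/L (0.48 ± 0.07). RFM1, which in S. cerevisiae joins Sum1 to Hst1, rose by 0.37 ± 0.11 (adjusted p = 0.042), and that call was lost without WT library 5, WT library 6 or replicate 2 at 400 µg/L (adjusted p = 0.0725, 0.185 and 0.177). The SIR2 transcript did not pass (0.07 ± 0.13, adjusted p = 0.78).

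In the mating pathway, 5 of 34 measured genes rose and 1 fell (median 0.02; 3 to 6 rises without a replicate), and the rises were led by subunits of the pheromone receptor's G protein. STE4, the β subunit, had 143 CPM in each library at 45 µg/L, against 34.9 and 38.5 CPM at 400 µg/L (1.96 ± 0.08, adjusted p = 6.9e-11). GPA1, the α subunit, had 27.5 and 27.2 CPM at 45 µg/L, against 8.33 and 8.87 CPM at 400 µg/L (1.67 ± 0.12). Replicates of both genes were far apart between levels and close within them. FAR1, which arrests the cycle in response to pheromone in S. cerevisiae, rose by 0.59 ± 0.09. PRM4, named as pheromone-regulated in S. cerevisiae, fell by 0.52 on the log2 scale. The 5 rises were 14.7% of the list, against 7.2% of all genes.

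Of 6 measured members of the a-specific list 2 rose and none fell (median 0.20), and the rises were fewer in some fits without a replicate. AXL1, a protease that matures a-factor in S. cerevisiae, had 22.9 and 21.0 CPM at 45 µg/L, against 12.4 and 11.8 CPM at 400 µg/L (0.86 ± 0.13, adjusted p = 0.00024). Whether AXL1 is specific to a cells was not tested. BAR1, the protease that degrades α-factor, had 9.78 and 12 CPM at 45 µg/L, against 8.28 and 7.54 CPM at 400 µg/L (0.46 ± 0.12). Its call was lost without WT library 6 (adjusted p = 0.226) and without either replicate at 400 µg/L (0.0545 and 0.0913). The α-factor receptor gene STE2 had 23.3 and 20.8 CPM at 45 µg/L and 22.2 and 26.7 CPM at 400 µg/L, groups that overlapped. At 15 µg/L, by contrast, STE2 had 66.4 and 68.0 CPM and BAR1 36.6 and 36.0 CPM, and both rose over 45 µg/L (log2 fold changes of 1.61 and 1.74). The 2 rises at 45 over 400 µg/L were 33.3% of the a-specific list, against 7.2% of all genes. Of the 5 measured α-specific genes, none passed at 45 against 400 µg/L. HMLALPHA2 is among these and is named for the HML locus, which WT lacks.

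Of 34 measured genes of middle and late sporulation 10 (29.4%) rose and 1 fell, against 7.2% and 3.46% of all genes, with a median of 0.07. Replicates at 45 µg/L lay wholly above those at 400 µg/L for 11 of them and wholly below for 7. Over all genes 24.6% lay wholly above and 19.6% wholly below. The count of rises in the list was slightly lower when each replicate was left out in turn. AMA1, which activates the anaphase-promoting complex in meiosis, had 7.31 and 6.84 CPM at 45 µg/L, against 2.41 and 1.61 CPM at 400 µg/L (1.77 ± 0.18). RRT8 had 10.6 and 10.7 CPM at 45 µg/L, against 4.37 and 3.57 CPM at 400 µg/L (1.40 ± 0.13). OSW2 (1.22), CRR1 (1.15) and DIT2 (0.83), all with roles in the spore wall in S. cerevisiae, rose as well, as did SPS4 (0.73).

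Among 24 measured genes of early meiosis 4 rose and 2 fell, with a median of -0.13, and leaving out a replicate gave 1 to 6 rises and 0 to 3 falls. IME1, the initiator of meiosis, had 31.8 and 28.5 CPM at 45 µg/L, against 13.7 and 15.0 CPM at 400 µg/L (1.07 ± 0.11, adjusted p = 5.9e-06). ZIP1, a component of the synaptonemal complex, had 45.0 and 35.2 CPM at 45 µg/L, against 53.0 and 61.9 CPM at 400 µg/L, and fell by 0.52 on the log2 scale, a call lost without WT library 6 (adjusted p = 0.105) or replicate 2 at 400 µg/L (adjusted p = 0.0512).

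Several genes of nutrient sensing rose strongly while the rest of their lists did not. SPL2, which in S. cerevisiae limits low-affinity phosphate uptake, had 25.6 and 30.7 CPM at 45 µg/L, against 7.39 and 6.91 CPM at 400 µg/L (1.97 ± 0.11, adjusted p = 2e-09). PHO4, the transcription factor of the phosphate response, had 66.1 and 74.5 CPM at 45 µg/L, against 40.8 and 42.4 CPM at 400 µg/L (0.76 ± 0.10). With PHO92 (0.69), 3 of 19 measured phosphate genes rose and 1 fell, and the median was 0.05. THI2, an activator of thiamine synthesis genes in S. cerevisiae, had 13.9 and 17.0 CPM at 45 µg/L, against 6.59 and 6.97 CPM at 400 µg/L (1.19 ± 0.12), but it was the only rise among 10 measured genes of thiamine and pyridoxine synthesis.

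Cell-surface genes showed 5 rises and no fall among 25 measured, and the count stayed at 5 in every fit that left out a replicate. CWP1, a cell-wall mannoprotein, had 65.1 and 77.3 CPM at 45 µg/L, against 30.9 and 30.9 CPM at 400 µg/L (1.20 ± 0.10). The glucanase gene EXG1 had 159 and 169 CPM at 45 µg/L, against 93.5 and 96.9 CPM at 400 µg/L (0.78 ± 0.08). SPI1 (0.77), CRH1 (0.51) and UTR2 (0.35) made up the rest. The 5 rises were 20.0% of the list. Over all genes 7.2% rose and 3.46% fell, the shares to set beside this list and the next. Among 19 measured genes listed under drug and metal efflux 6 rose and none fell, and fewer rose in each fit without a replicate. ARR2, the arsenate reductase gene near the left end of E, led with 4.36 and 4.62 CPM at 45 µg/L, against 1.49 and 1.84 CPM at 400 µg/L (1.45 ± 0.23). The rises of this list include CTR1 (0.36 ± 0.10), a call lost with upper-quartile factors (adjusted p = 0.0892). Whether each listed gene acts in efflux was not tested.

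A further set of genes stood high at 45 µg/L without a difference from 135 µg/L that passed the test. ALD4, a mitochondrial aldehyde dehydrogenase gene, had 856 and 945 CPM at 15 µg/L, 977 and 997 at 45, 954 and 886 at 135, and 603 and 537 at 400 µg/L. It rose by 0.79 ± 0.10 between 45 and 400 µg/L and differed by 0.10 from 135 µg/L (adjusted p = 0.62). MDH2, cytosolic malate dehydrogenase in S. cerevisiae, had 617 and 630 CPM at 45, 586 and 532 at 135, and 385 and 369 at 400 µg/L (0.73 ± 0.09). HSP12, a small heat-shock protein gene, had 3406 and 4135 CPM at 45, 3893 and 3739 at 135, and 2284 and 2014 at 400 µg/L (0.81 ± 0.11). FRE1, a metal reductase gene, was higher at 45 than at 400 µg/L (258 and 238 against 167 and 199 CPM) yet lower at 45 than at 135 µg/L, where it had 439 and 424 CPM (log2 fold change of 45 over 135 µg/L -0.80, adjusted p = 1.4e-05).

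Counts for the lists these genes belong to went both ways, and over all genes 7.2% rose and 3.46% fell. Of 34 measured genes of the glyoxylate cycle, acetate use and fatty acid oxidation 5 rose and 4 fell, and RDS2, a regulator of gluconeogenesis in S. cerevisiae, fell by 0.78 on the log2 scale. Of 27 general stress genes 4 rose and 4 fell (1 to 5 falls without a replicate), among them GLC3, the glycogen branching enzyme, which fell by 0.47 on the log2 scale. Among 15 genes of glycolysis and fermentation none rose and 1 fell, and among 50 of the TCA cycle and respiration none rose and 2 fell (0 to 1 without a replicate), with medians of -0.00 and -0.03. Iron genes had 3 rises (1 to 3 without a replicate) and no fall among 21 measured, nitrogen catabolism and permease genes 4 rises (2 to 4) and 3 falls (1 to 3) among 33, and sugar transport and sensing genes no rise and 1 fall among 7.

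Falls were fewer and smaller, and the galactose genes were the list with the highest share of them. Of 5 measured genes 4 fell, with a median of -0.72, in the reported fit and in every fit without a replicate. GAL10, the epimerase gene, had 72.0 and 58.3 CPM at 45 µg/L, against 124 and 157 CPM at 400 µg/L (-1.11 ± 0.13, adjusted p = 1.6e-05). GAL1 had 95.5 and 82.5 CPM at 45 µg/L, against 153 and 161 CPM at 400 µg/L (-0.82 ± 0.09), and GAL7 (-0.72) next to them and the inhibitor gene GAL80 (-0.47) fell too. All cultures grew in glucose medium. Of the 12 entries of the lactose and galactose list, 5 were matched by symbol and measured. Genes without a symbol in the annotation were not matched to it, so the list does not describe all lactose and galactose genes.

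MEP3, an ammonium permease gene, had 100 and 92.8 CPM at 45 µg/L, against 186 and 183 CPM at 400 µg/L (-0.93 ± 0.09, adjusted p = 2.4e-06). Genes of methionine and sulfur metabolism were among the 7 falls of the amino acid list, which had 87 measured members and 8 rises (5 to 10 falls and 3 to 7 rises without a replicate). MET1, of siroheme synthesis, had 60.8 and 61.6 CPM at 45 µg/L, against 86.9 and 94.2 CPM at 400 µg/L (-0.56 ± 0.10). MET17 (-0.45) and MET2 (-0.44), the homoserine acetyltransferase gene, fell by less, and none of their replicates overlapped between levels.

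Among the largest falls were genes without a symbol. KLLA0_A11110g had 82.9 and 49.7 CPM at 45 µg/L, against 178 and 232 CPM at 400 µg/L (-1.62 ± 0.26). KLLA0_C18117g (-1.22) and the adjacent ECT1 (-1.03), which in S. cerevisiae acts in phosphatidylethanolamine synthesis, fell together. Near the right end of B the adjacent genes KLLA0_B14839g (-1.31), KLLA0_B14861g (-1.32) and KLLA0_B14883g (-0.98) fell. The call of KLLA0_B14861g was lost without WT library 6 (adjusted p = 0.186) and without either replicate at 400 µg/L (0.0501 and 0.207), and library 1 alone had 25.3 CPM of it against 221 CPM in library 1R. The fall of KLLA0_F21252g to 53.8 and 51.6 CPM at 45 µg/L, against 101 and 100 CPM at 400 µg/L (-0.93 ± 0.10), was held in all fits without a replicate. The falls of KLLA0_B06017r (a tRNA gene, -2.12) and SNR6 (the U6 RNA, -1.40) concern transcripts that are not polyadenylated messages and had 8 to 34 and 17 to 19 reads in the libraries at 45 µg/L. Their calls were lost without WT library 6 (adjusted p = 0.247 and 0.169).

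Genes of growth shifted slightly. Of 53 measured genes of histones and DNA replication 12 rose and 4 fell, but the falls numbered 0 to 7 without a replicate and the rises 4 without replicate 1 at 400 µg/L and 12 without replicate 2. The 12 rises were 22.6% of the list and the 4 falls 7.55%, against 7.2% and 3.46% of all genes. PRI2, a primase subunit, had 38.5 and 34.4 CPM at 45 µg/L, against 19.2 and 20.9 CPM at 400 µg/L (0.87 ± 0.12). MCM3 (0.66) and CDC6 (0.61), of origin licensing, rose as well. For 83 of 152 ribosome biogenesis genes the replicates at 45 µg/L lay wholly above those at 400 µg/L, and for 3 wholly below. Over all genes these shares were 24.6% and 19.6%. By the test, ribosome biogenesis genes had 7 rises and no fall among 152, below the share of all genes, with a median of 0.16. That count depended on the libraries: it was 1 without replicate 1 at 400 µg/L, 16 without replicate 2, and 2 without WT library 6. Of 56 cytosolic ribosomal protein genes 1 rose and none fell, and none of 67 mitochondrial ones passed (median -0.15).

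Setting 45 µg/L against its neighbours on the scale placed these changes. WT at 45 over 135 µg/L gave 338 calls (6.47%), 236 higher (4.52%) and 102 lower (1.95%), and WT at 15 over 45 µg/L gave 662 (12.7%), 470 higher (9%) and 192 lower (3.68%). The first count fell to as few as 110 without 1 of the libraries at 135 µg/L and to 146 without WT library 6, and the second was 366 without WT library 6 and 367 without WT library 7. The 192 lower calls of the second dropped furthest without WT library 6. They also dropped by a large share without WT library 7 or 8, so they depend on single libraries. These comparisons share the libraries at 45 µg/L with the main one, so each gene's own values are given side by side. TNA1 had 3331 and 3375 CPM at 15 µg/L, 2591 and 2489 at 45, 977 and 1016 at 135, and 408 and 439 at 400 µg/L (log2 fold change 1.35 for 45 over 135 µg/L and 0.40 for 15 over 45 µg/L). NPT1 had 1193 and 1229 CPM at 15 µg/L, 447 and 493 at 45, 190 and 193 at 135, and 159 and 143 at 400 µg/L, with log2 fold changes of 1.36 for 15 over 45 µg/L and 1.30 for 45 over 135 µg/L. KLLA0_A00132g had 743 and 707 CPM at 15 µg/L, 234 and 273 at 45, 33.5 and 35.2 at 135, and 31.4 and 21.3 at 400 µg/L, so both replicates at 135 µg/L lay close to those at 400 µg/L.

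The counts of each list at these steps are given for description, with no test between lists or steps. Over all genes 4.52% were higher and 1.95% lower at 45 over 135 µg/L, and 9% and 3.68% at 15 over 45 µg/L. The lists named here held 34 (middle and late sporulation), 87 (amino acid synthesis) and 152 (ribosome biogenesis) measured genes. In the first 5 ranks from an end, 30 of 60 genes rose at 45 over 135 µg/L and 34 at 15 over 45 µg/L. Leaving out a replicate gave 26 to 31 and 24 to 32. For middle and late sporulation the counts were 6 and 16 (5 to 7 and 10 to 17), and for amino acid synthesis 5 and 42 (0 to 7 and 33 to 38). For ribosome biogenesis, 38 genes were higher and none lower at 45 over 135 µg/L, and none were higher and 34 lower at 15 over 45 µg/L. The libraries at 45 µg/L enter both counts with opposite sign, and without WT library 6 the counts were 5 higher and 7 lower. The 38 was also 2 without WT library 3 at 135 µg/L, so these calls rest on single libraries. DHR2 had 45.1 and 47.3 CPM at 15 µg/L, 65.2 and 67.4 at 45, 46.5 and 50.2 at 135, and 53.4 and 52.4 at 400 µg/L, the highest level being at 45 µg/L. Its call at 45 over 400 µg/L (0.32 ± 0.09) was lost in each fit without a replicate, with adjusted p between 0.074 and 0.157.

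The step of 45 over 400 µg/L was also made by the sir2Δ strain, with no library shared. There 970 genes (18.6%) passed, 561 (10.7%) higher and 409 (7.83%) lower, and the count was 311 without sir2Δ replicate 1 at 400 µg/L, 332 without replicate 2 and 350 without sir2Δ library 5. Of the 376 WT rises, 112 (29.8%) rose in sir2Δ as well, which is 20.0% of the sir2Δ rises, and 8 fell. Of the 181 WT falls, 69 (38.1%) fell in sir2Δ, 16.9% of the sir2Δ falls, and 9 rose. Among the 71 WT rises of at least 1 log2 unit, 7 (9.86%) rose in sir2Δ, a share near that of all genes.

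The difference between the strains' responses was tested as an interaction, WT minus sir2Δ, which passed for 220 genes (4.21%), 162 (3.1%) with a larger and 58 (1.11%) with a smaller log2 fold change in WT. Single libraries moved this count too: it was 118 and 131 without sir2Δ replicates 1 and 2 at 400 µg/L, 142 without WT library 6 and 377 without WT library 5, and 702 with library 1R alone as WT replicate 1 at 400 µg/L. With the replicate number as a block it was 427. The interaction was positive for 31 of the 60 genes in the first 5 ranks from an end and negative for none. TNA1 changed by 2.58 in WT and 0.14 in sir2Δ, where it had 2230 and 1923 CPM at 45 µg/L and 1855 and 1901 CPM at 400 µg/L (interaction 2.44, adjusted p = 5.6e-09). NPT1 changed by 1.64 in WT and 0.22 in sir2Δ (interaction 1.42), and STE4 by 1.96 in WT and 0.34 in sir2Δ (interaction 1.62). Among the sporulation genes 7 of 34 had a positive and 1 a negative interaction, and among those of early meiosis 3 of 24 a positive one. Of the glyoxylate, acetate and fatty acid genes 5 of 34 were positive. So was 1 of 6 members of the a-specific list (AXL1) and 1 of 5 of the α-specific list. The counts for early meiosis, for glyoxylate, acetate and fatty acid genes and for α-specific genes were lower without sir2Δ replicate 1 at 400 µg/L. The negative count of the sporulation list was higher without WT library 5. These counts therefore depend on single libraries. Leaving out a replicate gave 28 to 33 positive interactions in the first 5 ranks, 6 to 7 in the sporulation list and 0 to 1 in the a-specific list.

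For other genes the interaction did not pass or ran the other way. GAL10 changed by -1.11 in WT and -1.17 in sir2Δ, and PHO4 by 0.76 and 0.79, with interactions of 0.06 ± 0.18 and -0.03 ± 0.14 (SE) that did not pass. Amino acid synthesis genes went another way: 32 of 87 rose and 1 fell in sir2Δ, against 8 rises and 7 falls in WT, and the interaction was negative for 13 (6 to 12 without a replicate) and positive for none. The 32 rises in sir2Δ were 12 without sir2Δ replicate 1 at 400 µg/L. MET1 fell in WT and rose in sir2Δ, where it had 274 and 291 CPM at 45 µg/L and 193 and 196 CPM at 400 µg/L (interaction -1.10, adjusted p = 0.0001). Of 152 ribosome biogenesis genes 80 rose in sir2Δ (34 without replicate 1 at 400 µg/L) and 7 in WT, and 7 interactions were negative (1 to 12 without a replicate).

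**Figure D4:**
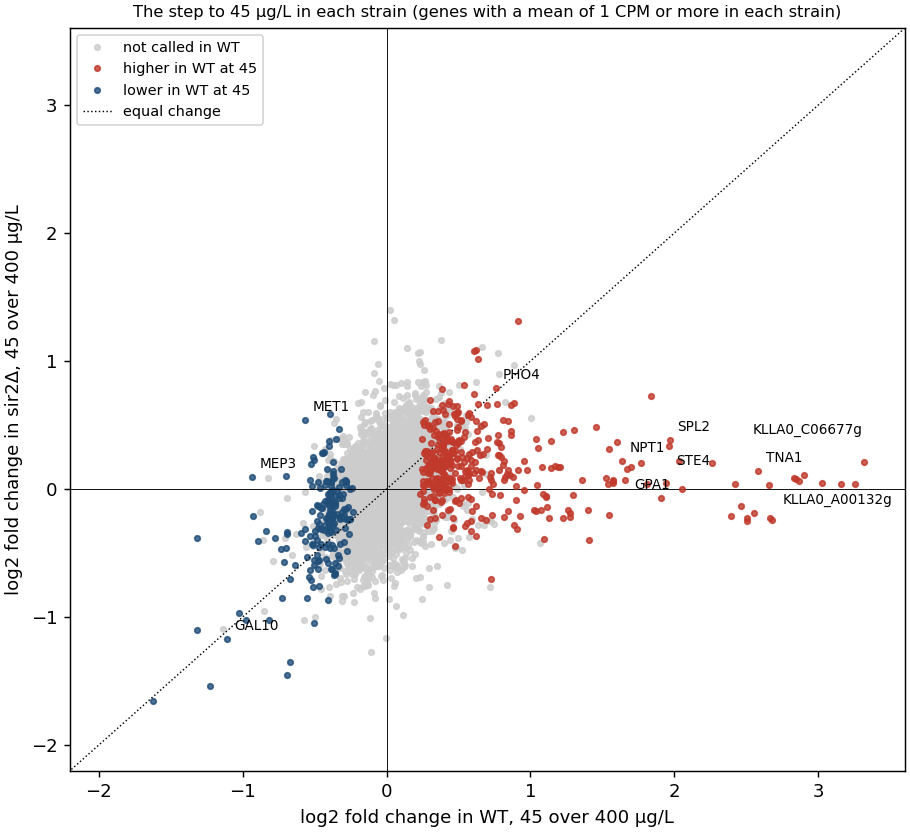
Log2 fold change of 45 over 400 µg/L nicotinic acid in WT (horizontal axis) and in sir2Δ (vertical axis) for 5104 genes with a mean of at least 1 CPM in each strain; red genes rose and blue genes fell in WT, and the dotted line marks equal change. The largest WT rises, such as TNA1 (2.58 in WT, 0.14 in sir2Δ) and KLLA0_C06677g (3.32 and 0.21), lie along the horizontal axis, while GAL10 (-1.11 and -1.17) lies near the line.

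At 45 µg/L itself the distance of WT from sir2Δ cells varied among these genes, a description with no test of the strains' difference. WT had 234 and 273 CPM of KLLA0_A00132g at 45 µg/L, against 658 and 696 CPM in sir2Δ at 45 µg/L. NPT1 had 447 and 493 CPM in WT against 836 and 855 CPM in sir2Δ, and AMA1 7.31 and 6.84 CPM in WT against 22.2 and 20.8 CPM in sir2Δ. Both WT libraries lay far below both sir2Δ libraries for these 3 genes. STE4 had 143 CPM in both WT libraries against 150 and 148 CPM in sir2Δ, and KLLA0_C06677g 1340 and 1288 CPM in WT against 1457 and 1366 CPM in sir2Δ, so WT lay just below sir2Δ. TNA1 was higher in WT, with 2591 and 2489 CPM against 2230 and 1923 CPM in sir2Δ.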

How the data were processed

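The raw counts per gene that the authors deposited were used; per the submitters' processing notes, cutadapt, Bowtie2, SAMtools and featureCounts were among the tools, and neither their settings nor strand use or genome build is given in the sources used here. Reads that overlap 2 genes or an antisense partner may therefore not be told apart. All 5335 gene IDs matched the RefSeq table of assembly ASM251v1, used for symbols (4043 IDs), coding lengths and gene order only. Libraries 1 and 1R share a number and were summed. Genes were kept by filterByExpr at a minimum count of 10 (5224 of 5335), scaled by TMM and fitted with edgeR 4.0.16 (R 4.3.3) over 16 columns in 8 groups (8 residual degrees of freedom, common biological variation 0.0857). Calls had a Benjamini-Hochberg adjusted p under 0.05 over all tested genes. SE is the log2 fold change over the root of its F statistic. The fit was tested on simulated data. Alternatives included DESeq2 1.42.0, other scalings, filters and left-out replicates. Named genes were the 14 largest called rises and falls with separate replicates, up to 6 called members of each list, all measured genes of NAD salvage, mating markers, SIR2 and the 6 largest interactions each way. The members and lists were chosen with earlier results of these data known.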

Additional observations from a re-analysis of the deposited data

Results flagged for a closer look

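For the genes below the change of 45 over 400 µg/L differed between the strains by the interaction test (WT minus sir2Δ, adjusted p under 0.05, edgeR). The change was larger in WT for KLLA0_C03157g by 3.57 and for KLLA0_B14575g by 3.43 log2 units. KLLA0_B14575g had 29.6 and 24.5 CPM in WT at 45 µg/L and 5.14 and 4.61 CPM in WT at 400 µg/L, while its sir2Δ libraries held 10 and 2 reads at 45 µg/L and 17 and 9 reads at 400 µg/L, so its interaction rests on few reads. The sir2Δ libraries of KLLA0_C03157g held 2 and 8 reads at 45 µg/L and 12 and 13 reads at 400 µg/L. Near chromosome ends the difference was 3.22 for KLLA0_A00132g, 3.12 for KLLA0_C00132g and 2.97 for KLLA0_D20009g. KLLA0_C06677g differed by 3.11, TNA1 by 2.44, STE4 by 1.62, GPA1 by 1.52, NPT1 by 1.42 and URH1 by 0.61.

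The change was smaller in WT than in sir2Δ for CCM1 (-1.24), MET1 (-1.10), MEP3 (-1.03), KLLA0_B09064g (-0.98), KLLA0_E06227g (-0.91) and UTP8 (-0.89). CCM1, UTP8 and KLLA0_E06227g did not pass in WT, with log2 fold changes of -0.08, -0.05 and -0.15, and rose in sir2Δ by 1.16, 0.84 and 0.76. KLLA0_B09064g fell in WT (-0.39) and rose in sir2Δ (0.59), and its WT call was lost without replicate 1 at 400 µg/L (adjusted p = 0.204), without WT library 5 (0.197) and without WT library 6 (0.0811).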

How the results depend on the processing

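Of the 557 calls of WT at 45 over 400 µg/L, all were kept with DESeq2 (761 calls), 530 with DESeq2's size factors in edgeR and 487 with upper-quartile factors. Fits with fewer samples gave fewer calls, 368 with the 4 WT groups and 153 with the compared groups alone. Library 1 alone as replicate 1 gave 350, library 1R alone 670 (454 shared), and 1, 1R and 2 as 3 replicates 338. Without 1 replicate in turn, calls ranged from 319 to 643. DESeq2 made 517 calls at WT 45 over 135 µg/L (338 in edgeR) and 357 interactions (220 in edgeR), and library 1R alone gave 702 interactions; for these changes the cause was not tested. Without 1 replicate in turn, calls ranged from 110 to 387 for WT 45 over 135 µg/L, from 366 to 677 for WT 15 over 45 µg/L, from 311 to 1248 for sir2Δ and from 118 to 377 for the interaction. Deviations of libraries with the same number in both strains correlated at 0.239, 0.481, -0.035 and -0.083 at 15, 45, 135 and 400 µg/L, so the numbers were not taken as pairs, though those at 15 and 45 µg/L may share a source. With the replicate block the interaction had 427 calls, with all 220 kept. For the genes named in WT, 1798 values under alternatives kept their side of the threshold, 283 lost the call and 2 gained it. No gene called in the reported fit reversed direction. For named genes not called there, direction was not compared. With 2 replicates a group, small changes are called from few libraries, and p-values measure the spread between these cultures only. Scalings moved the median of all genes by 0.02 at RLE and -0.04 at upper-quartile factors.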

Other observations

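The rises of 3 genes beyond the first 30 from an end were picked out after their values were seen. KLLA0_C11517g rose by 2.26 log2 units at 45 over 400 µg/L, KLLA0_F22319g by 2.03, and THI73, named for a thiamine-regulated transporter in S. cerevisiae, by 1.81. KLLA0_C03157g and KLLA0_B14575g had nearly equal levels in all WT libraries (28.9 and 23.6 CPM against 29.6 and 24.5 CPM at 45 µg/L, and 4.92 and 4.92 CPM against 5.14 and 4.61 CPM at 400 µg/L) and rose by 2.41 and 2.46. They lie on different chromosomes, and how reads with several matches were counted is not given in the sources used here, so they may share reads.

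KLLA0_F21252g had its lowest WT level at 45 µg/L, with 78.0 and 65.8 CPM at 15 µg/L, 53.8 and 51.6 at 45, 92.2 and 102 at 135, and 101 and 100 at 400 µg/L. The log2 fold change was 0.45 for 15 over 45 µg/L (adjusted p = 0.0064) and -0.88 for 45 over 135 µg/L (adjusted p = 2.7e-05).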
